A study of Mus musculus with 6 samples.

Results

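The peripheral myelin genes examined here are *Mbp*, *Pmp22*, *Mag*, *Prx*, *Mal*, *Pmp2*, *Gjb1* and *Cldn19*, 8 of the 24062 genes counted in the deposited tables. They were chosen by gene symbol, for the place of their products in the myelin sheath. The study had already reported *Mbp* and *Pmp22* as up-regulated in its RNA-seq, so their direction was known beforehand. Bulk RNA-seq libraries were compared from 3 *Nf1fl/fl;DhhCre* mice and from 3 mice that also carried floxed *Runx1* and *Runx3* (labelled Rx1flfl;Rx3fl/fl;DhhCre, with double knockout in the sample source, called DKO here). Each mouse carried *DhhCre*, all were on the C57BL/6-I129 background, and the extract protocol and the methods of the study give floxed *Nf1* for the second group too, which its genotype label leaves out. The tissue label reads dorsal root ganglion (DRG) for the first group and neurofibroma tumor for the second. The methods speak of DRG/tumors for both, so tissue and genotype cannot be told apart from the labels alone. The ages of these mice are not given in the sources used here. *Dhh*-driven Cre deletes floxed genes in Schwann cells (SCs) and their precursors, so cells of the same piece of tissue that never had Cre keep intact copies.

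In peripheral nerve, a myelinating SC wraps its membrane around 1 axon segment and compacts it into a multilayered sheath. Compact myelin is held together by adhesion and lipid-binding proteins between its membranes. Non-compact myelin, in the incisures and beside the nodes, keeps cytoplasm and is sealed and connected by junctional proteins. The genes of these proteins are switched on when an SC myelinates and fall when it leaves the axon, and they are widely used as markers of the myelinating state. Loss or gain of a copy of *PMP22* and mutations of *GJB1* or *PRX* cause inherited demyelinating neuropathies in people.

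The quality of the libraries bears on every value below. Totals ran from 12439296 to 16682194 counts, factors of the trimmed mean of M values (TMM) scaling from 0.950 to 1.04, and replicates differed from each other by far more than counting noise. *Runx1*, the first targeted gene, was at 131, 141 and 172 CPM (counts divided by the TMM-scaled library total) in *Nf1fl/fl;DhhCre* replicates 1 to 3. The libraries labelled DKO had 84.0, 78.9 and 185 CPM (log2 fold change -0.44, adjusted p = 0.370, limma-voom with Benjamini-Hochberg adjustment). Replicate 3 of that group thus lay above every *Nf1fl/fl;DhhCre* library. Counts over the whole tissue include cells without Cre, so they do not show whether the gene was deleted in SCs. *Runx3* was at 19.9, 15.1 and 29.9 CPM and at 13.5, 10.3 and 12.1 CPM, with a log2 fold change of -0.79 (adjusted p = 0.104, limma-voom). *Nf1*, floxed in both groups, had a log2 fold change of -0.060. *Nf1fl/fl;DhhCre* replicate 2 and replicate 2 labelled DKO held skeletal muscle RNA, with 2264 and 11625 CPM over 9 muscle genes against 5.84 to 66.0 CPM in the others. Values without both of these libraries are given for *Pmp2* and *Mag*, whose results they touch, and in brief for the other 6 genes.

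Each of the 8 genes was higher in the libraries labelled DKO, and 7 of them passed as differentially expressed genes (DEGs), by an adjusted p below 0.05 and a change of more than 2-fold. Over the 15652 genes tested, 8.03% were DEGs in that direction and 5.36% in the other. The median log2 fold change was 1.26 over the 8 genes and 0.015 over all genes tested. In all 8 genes every library labelled DKO lay above every *Nf1fl/fl;DhhCre* library, which held for 21.8% of all genes tested. The 8 genes together took 0.514% ± 0.056 (SD, n = 3) of all counts in the *Nf1fl/fl;DhhCre* libraries and 1.14% ± 0.18 (SD, n = 3) in the others. Their summed CPM was 5546, 4666 and 4790 against 12430, 9837 and 12945, a ratio of the means of 2.35. *Pmp22* alone made up most of this sum, and without it the ratio was 2.42. In bulk tissue a larger share of myelinating cells and more myelin RNA in each cell cannot be told apart.

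**Figure D1:**
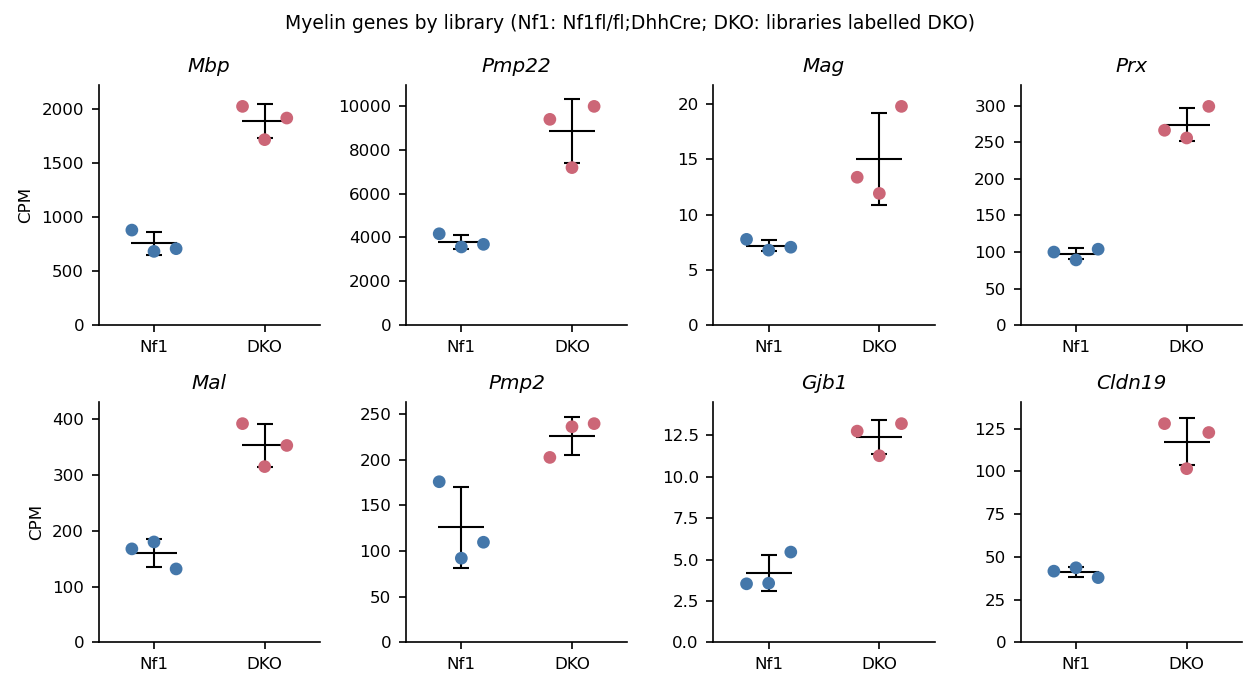
CPM of each of the 8 genes (vertical axes from 0, a scale for each gene) in the 3 *Nf1fl/fl;DhhCre* (Nf1) and the 3 libraries labelled DKO (DKO), with points for libraries in the order of replicates 1 to 3 and bars for the mean and SD. In each gene the DKO points lie above the Nf1 points, by the narrowest gap in *Pmp2* (lowest DKO value 1.15 times the highest Nf1 value) and the widest in *Prx* (2.46 times).

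As the design concerns RUNX factors, the 250 bases upstream of the annotated start sites of the 8 genes were searched for TGTGGT, the core of the sequence that RUNX proteins bind, on either strand. RefSeq windows (GRCm38.p6) were held for 6 of the 8 genes, *Pmp22*, *Mag*, *Prx*, *Mal*, *Gjb1* and *Cldn19*. TGTGGT was found in 5 of their 15 windows and in 14.0% of all 32851 windows of this length. Counted by gene, it was found in 4 of the 6 genes and in 4303 of all 27025 genes with such windows. The 6 genes had more windows for each gene (15 windows) than all genes (32851 windows), so the counts by gene are not on equal terms. The study places its RUNX1 peak near *Pmp22* far upstream of the start site, outside these windows. Some windows of a gene overlap, and no binding data were analysed here, so a match is only a match of letters. Each match is shown with 20 bases on either side, read in the direction of the gene, with the motif in capitals (ACCACA is TGTGGT on the opposite strand). They are shown because *Runx1* and *Runx3* are the genes in which the groups differ by design.

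Pmp22, start site 1, chr11:63128779-63128824, plus strand: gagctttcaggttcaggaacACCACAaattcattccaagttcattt
Pmp22, start site 2, chr11:63131239-63131284, plus strand: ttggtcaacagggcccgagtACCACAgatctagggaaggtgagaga
Mag, start site 3, chr7:30914385-30914430, minus strand: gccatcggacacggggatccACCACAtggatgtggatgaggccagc
Mal, chr2:127656884-127656929, minus strand: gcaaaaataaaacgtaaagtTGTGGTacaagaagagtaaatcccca
Gjb1, start site 3, chrX:101381885-101381930, plus strand: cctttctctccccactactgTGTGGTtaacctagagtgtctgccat

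The matches began 183 and 198 bases upstream of *Pmp22* start sites, 89 bases upstream of a *Mag* start site, 214 bases upstream of that of *Mal* and 213 bases upstream of a *Gjb1* start site. The windows held for *Prx* and *Cldn19* did not hold these letters.

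*Pmp22* and *Mbp* were the most abundant by CPM. *Pmp22* encodes a tetraspan protein of compact myelin and lies on chromosome 11 of GRCm38 (63128982 to 63159547, plus strand). Its level was 4168, 3567 and 3685 CPM in *Nf1fl/fl;DhhCre* replicates 1 to 3 and 9387, 7186 and 9978 CPM in the libraries labelled DKO. The groups did not overlap, and the lowest value of the second group, in replicate 2, was 1.72 times the highest of the first. *Pmp22* was up-regulated 2.31-fold (log2 fold change 1.21, SE 0.15, adjusted p = 0.00835, limma-voom with Benjamini-Hochberg adjustment). *Mbp* encodes the basic protein that draws the cytoplasmic faces of the myelin membrane together. It lies on chromosome 18 (82475146 to 82585637, plus strand), and its exons also serve a longer transcript family that is expressed outside myelin, which counts per gene do not separate. *Mbp* was at 881, 684 and 709 CPM against 2028, 1720 and 1920 CPM. Its 3 upper values lay within 1.18-fold of each other, and the difference between groups was larger than that spread (2.50-fold, log2 fold change 1.32, SE 0.13, adjusted p = 0.00613, limma-voom).

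*Pmp2* and *Mal* belong to the lipid side of the sheath. *Pmp2* (chromosome 3, 10179851 to 10183929, minus strand) encodes the P2 protein, a fatty-acid-binding protein on the cytoplasmic face of compact myelin. It was at 176, 92.2 and 110 CPM in the *Nf1fl/fl;DhhCre* libraries and 203, 236 and 240 CPM in those labelled DKO. *Nf1fl/fl;DhhCre* replicate 1 stood well above the other two and close to the lowest library of the second group, which made *Pmp2* the most variable of the 8 genes within a group (coefficient of variation 35.1% in *Nf1fl/fl;DhhCre*). Its increase of 1.87-fold (95% interval 1.28 to 2.73; log2 fold change 0.90, SE 0.23) had an adjusted p of 0.0366 (limma-voom) but missed the 2-fold threshold. An adjusted p under 0.05 with a higher level, at any fold, was seen in 11.1% of all genes tested. Without *Nf1fl/fl;DhhCre* replicate 1 the log2 fold change was 1.19 and *Pmp2* passed as a DEG, as it did without replicate 1 labelled DKO (1.02). Its adjusted p rose above 0.05 when any of the other 4 libraries was left out (0.0567 to 0.1003, limma-voom, log2 fold changes 0.75 to 0.87), with sample quality weights (0.0863, log2 fold change 0.65) and with edgeR's quasi-likelihood test (0.0508). Without both libraries that held muscle RNA, an alternative added after the data were seen, *Pmp2* was at 0.68 (adjusted p = 0.118, limma-voom). In the annotation a further gene model on the same strand, *Gm37389*, shares its exons and was no row of the tables, so the *Pmp2* count may hold its reads. *Mal* (chromosome 2, 127633226 to 127656695, minus strand), a small proteolipid of lipid rafts that takes part in sorting proteins to the myelin membrane, was at 167, 180 and 131 CPM against 391, 314 and 352 CPM. Its groups were clearly apart, with the lowest value of the second 1.75 times the highest of the first (2.22-fold, log2 fold change 1.15, SE 0.16, adjusted p = 0.00931, limma-voom).

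*Prx* was examined together with the genes of its partners. *Prx* (chromosome 7, 27499324 to 27520214, plus strand) encodes periaxin, a scaffold that ties the outer SC membrane to the basal lamina through DRP2 and dystroglycan. It was at 99.9, 89.1 and 104 CPM in the *Nf1fl/fl;DhhCre* libraries and 266, 256 and 299 CPM in those labelled DKO. Both groups were tight, with coefficients of variation of 7.78% and 8.23%, and *Prx* had the smallest p of the 8 genes (2.81-fold, log2 fold change 1.49, SE 0.12, adjusted p = 0.00596, limma-voom). Of the 4 other genes of this complex, 1 was a DEG, *Drp2*, in the higher direction (8.03% of all genes tested were). *Drp2* was at 287, 293 and 345 CPM against 1332, 1103 and 1168 CPM (log2 fold change 1.96, SE 0.13, adjusted p = 0.00374, limma-voom). *Dag1*, which encodes dystroglycan, was at 1169 ± 219 and 946 ± 63.8 CPM (SD, n = 3; log2 fold change -0.29, adjusted p = 0.239, limma-voom). *Utrn* (log2 fold change 0.23) and *Dmd* (-0.20), the utrophin and dystrophin genes, did not pass either. The median log2 fold change of the 4 genes was 0.014, near the 0.015 of all genes tested.

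*Cldn19* and *Gjb1* encode junctional proteins of non-compact myelin, and their fold changes were the highest of the 8 genes. *Cldn19* (chromosome 4, 119255414 to 119262438, plus strand) encodes a claudin of the tight junctions that SC membrane forms with itself at incisures and beside the nodes. It was at 41.7, 43.7 and 37.9 CPM against 128, 102 and 123 CPM, so that the lowest library labelled DKO was 2.33 times the highest *Nf1fl/fl;DhhCre* library (2.85-fold, log2 fold change 1.51, SE 0.15, adjusted p = 0.00598, limma-voom). *Gjb1* (chromosome X, 101376378 to 101385629, plus strand) encodes connexin 32, which forms gap junctions between the layers of a sheath. It was low, at 3.54, 3.57 and 5.45 CPM (51, 60 and 85 counts) in the *Nf1fl/fl;DhhCre* libraries. The libraries labelled DKO had 12.8, 11.3 and 13.2 CPM (160, 137 and 200 counts), 3.01-fold higher (95% interval 1.99 to 4.57; log2 fold change 1.59, SE 0.26, adjusted p = 0.0121, limma-voom). Without *Nf1fl/fl;DhhCre* replicate 1 its adjusted p was 0.0541 (limma-voom). Counting error alone was 7.07% to 14.0% per library for *Gjb1*. The 95% intervals of *Gjb1* and *Cldn19* overlapped those of *Mbp* and *Pmp22*, so the order of the fold changes among the 8 genes is not resolved. Antisense gene models, *Gm15541* and *Gm12927*, overlap exons of *Prx* and *Cldn19*. Neither was a row of the tables and the strand setting is not given in the sources used here, so reads from them cannot be told apart from those of *Prx* and *Cldn19*.

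*Mag* (chromosome 7, 30899176 to 30914873, minus strand) encodes myelin-associated glycoprotein, a sialic-acid-binding adhesion protein of the membrane next to the axon. It was at 7.77, 6.79 and 7.06 CPM in the *Nf1fl/fl;DhhCre* libraries, from 112, 114 and 110 counts. The libraries labelled DKO had 13.4, 11.9 and 19.8 CPM, from 168, 145 and 300 counts. Replicate 3 of that group stood apart, and the group had a coefficient of variation of 27.9% against counting errors of 5.77% to 8.30%. Replicate 3 may also be the library of this group from another sequencing run, though by the other animal number that is replicate 2. The change was 2.07-fold (95% interval 1.35 to 3.17; log2 fold change 1.05, SE 0.26, adjusted p = 0.0333, limma-voom), the closest to the threshold of the 7 DEGs. Without replicate 3 labelled DKO, the library in which *Runx1* was not reduced, *Mag* was at a log2 fold change of 0.82 (adjusted p = 0.0609, limma-voom) and was not a DEG. It also lost its call when *Nf1fl/fl;DhhCre* replicate 1, 2 or 3 was left out (1.13, 1.05 and 1.08, with adjusted p of 0.0799, 0.0505 and 0.0736, limma-voom), and without both libraries that held muscle RNA (1.17, adjusted p = 0.0597, limma-voom). Without replicate 3 labelled DKO, *Mbp*, *Pmp22*, *Prx*, *Mal*, *Gjb1* and *Cldn19* remained DEGs, at log2 fold changes of 1.12 to 1.54.

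**Figure D2:**
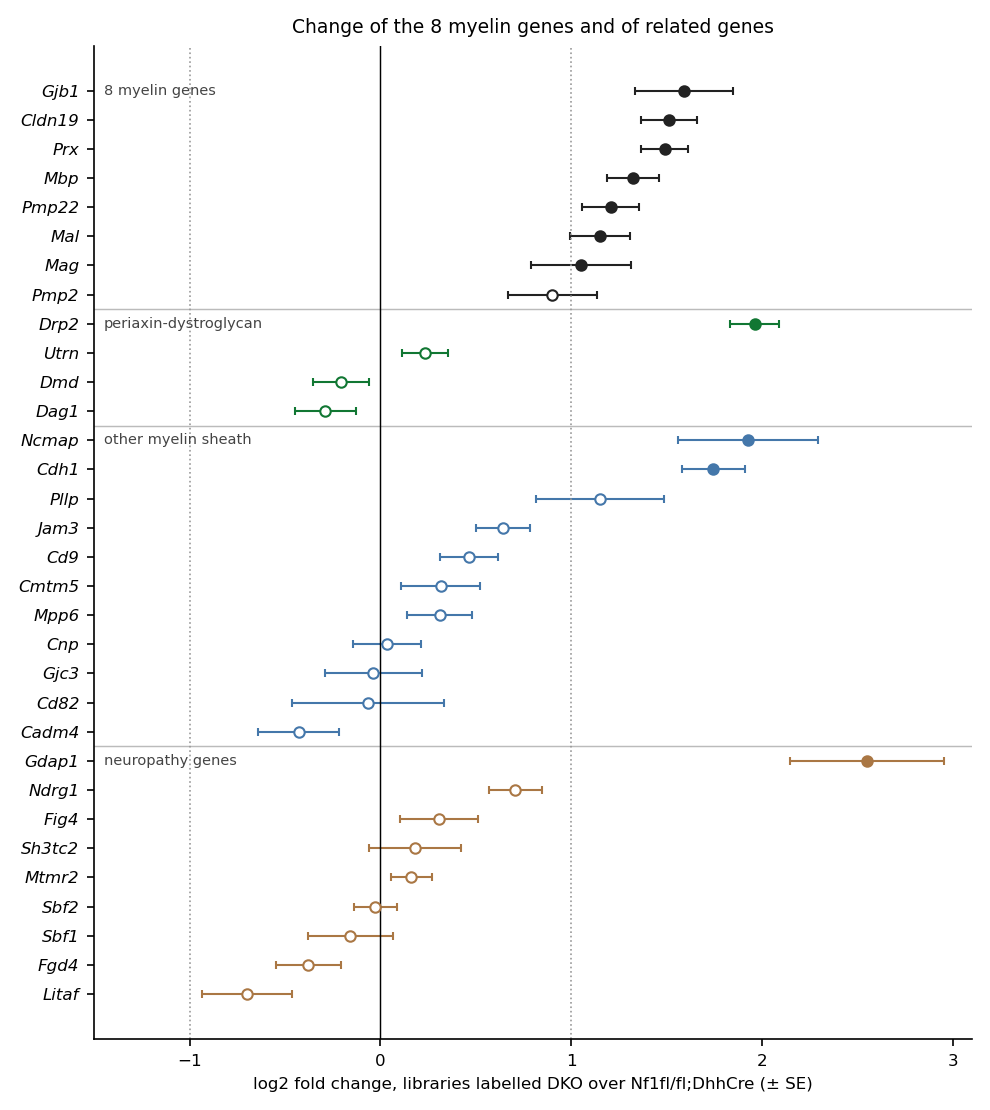
Log2 fold changes (horizontal axis, libraries labelled DKO over *Nf1fl/fl;DhhCre*) with SE bars for the 8 genes and for 3 groups of related genes, separated by lines. Filled points are DEGs and the dotted lines mark 2-fold. The 8 genes lie between 0.90 and 1.59, while the related groups spread from -0.70 (*Litaf*) to 2.55 (*Gdap1*), with 4 filled points among the related genes shown.

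Levels of different genes were set side by side as CPM per kb of annotated exon (union of exons, GENCODE M21). The order was the same in both groups. *Pmp22* stood far above the rest, at 1617 ± 135 CPM per kb (SD, n = 3) in *Nf1fl/fl;DhhCre* and 3760 ± 625 in the libraries labelled DKO. *Mbp* (89.5 ± 12.7 and 223 ± 18.5 CPM per kb) and *Pmp2* (89.5 ± 31.4 and 161 ± 14.5) came next. Their ranges overlapped in *Nf1fl/fl;DhhCre* and were apart in the other group, where the lowest *Mbp* value was 203 and the highest *Pmp2* value 170 CPM per kb. *Mal* followed at 57.4 ± 9.0 and 127 ± 13.8 CPM per kb, below every *Pmp2* value within each group by a narrow margin (highest *Mal* value 64.7 against a lowest *Pmp2* value of 65.5 in *Nf1fl/fl;DhhCre*, 141 against 144 in the other). *Prx* (17.5 ± 1.4 and 49.0 ± 4.0) and *Cldn19* (9.64 ± 0.69 and 27.6 ± 3.3) were lower and did not overlap. *Gjb1* (2.45 ± 0.64 and 7.27 ± 0.59) and *Mag* (1.77 ± 0.12 and 3.69 ± 1.03) were lowest, and *Gjb1* lay above *Mag* in every library of each group. With the length of the longest transcript in place of the union of exons, *Mbp* was at 158 and 394 CPM per kb and lay above every *Pmp2* value in each group. The order of *Mag* and *Gjb1* was then unresolved, with means of 2.96 and 2.64 CPM per kb in *Nf1fl/fl;DhhCre* and of 6.18 and 7.83 CPM per kb in the libraries labelled DKO, and overlapping ranges in both groups.

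**Figure D3:**
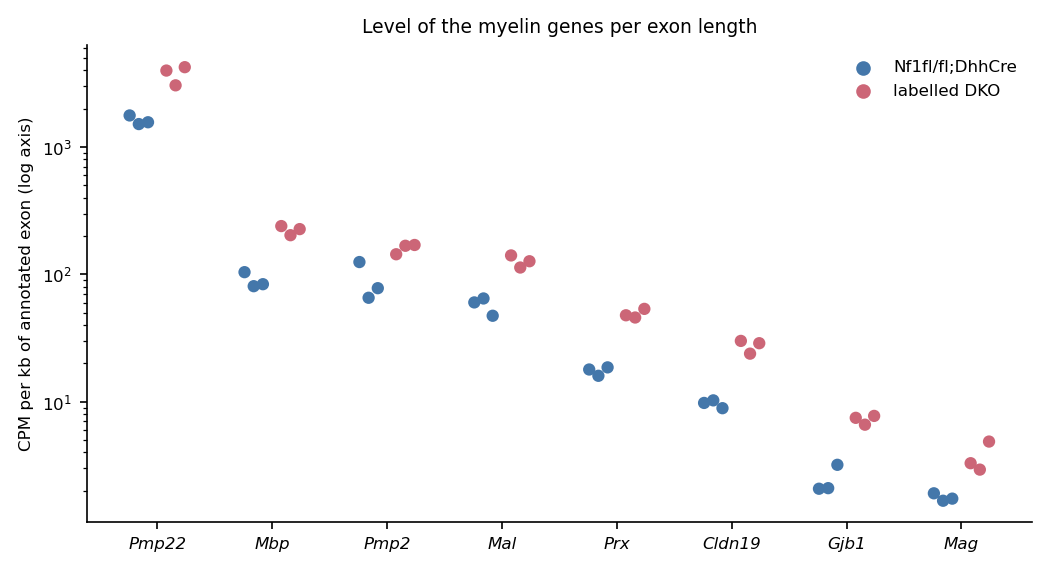
CPM per kb of annotated exon (log axis) for the 8 genes, ordered by their mean in *Nf1fl/fl;DhhCre*, with a point for each library. *Pmp22*, at 1515 to 4239 CPM per kb, stands above the next gene by over a factor of 10, and *Mbp* and *Pmp2* overlap in the *Nf1fl/fl;DhhCre* libraries.

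Whether the 8 genes kept their proportions to each other was examined with the log2 ratio of each to *Pmp22* in the same library. *Prx* and *Cldn19* stood 0.28 and 0.30 higher relative to *Pmp22* on the log2 scale in the libraries labelled DKO, and their groups did not overlap (exact two-sided permutation p = 0.1 for each, the smallest that 3 against 3 libraries allow, and 0.35 after Benjamini-Hochberg adjustment over 7 ratios). On the ratio to *Pmp22*, 2.03% of all genes tested had every library labelled DKO above every *Nf1fl/fl;DhhCre* library. *Gjb1* differed by 0.38 and *Mbp* by 0.12, with overlapping groups (exact permutation p = 0.3 and p = 0.2). *Mag* (-0.18), *Pmp2* (-0.31) and *Mal* (-0.054) were lower relative to *Pmp22*, again with overlap (exact permutation p from 0.4 to 0.9). None of these ratios passed the adjustment, and the values rest on single libraries. Over the fits that left out 1 library, *Gjb1* ranged from 0.21 (without *Nf1fl/fl;DhhCre* replicate 1) to 0.61 (without *Nf1fl/fl;DhhCre* replicate 3). *Mbp* ranged from 0.040 (without replicate 2 labelled DKO) to 0.20 (without replicate 3), and *Mag* from -0.30 (without replicate 3 labelled DKO) to -0.064 (without replicate 1). *Pmp2* ranged from -0.49 (without replicate 2 labelled DKO) to -0.11 (without *Nf1fl/fl;DhhCre* replicate 1), with -0.18 without replicate 1 labelled DKO. *Prx* was at 0.18 without replicate 2 labelled DKO. The sign for *Mal* turned when *Nf1fl/fl;DhhCre* replicate 2 (0.083) or replicate 3 labelled DKO (0.037) was left out.

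The share of SC RNA in the tissue can differ between groups, so each gene was also set against 7 general SC genes (*Sox10*, *Erbb3*, *S100b*, *Cdh19*, *Foxd3*, *Lgi4* and *Gfra3*). The measure was the log2 CPM of the gene minus the mean log2 CPM of the 7, in each library. *Sox10*, the transcription factor of the whole SC lineage, was at 221 ± 23.5 and 237 ± 31.7 CPM (SD, n = 3; log2 fold change 0.10, adjusted p = 0.677, limma-voom). Relative to the 7 genes the difference between groups was largest for *Gjb1* (1.62), *Cldn19* (1.54) and *Prx* (1.52) and then *Mbp* (1.35), *Pmp22* (1.24), *Mal* (1.18), *Mag* (1.06) and *Pmp2* (0.92). The groups did not overlap in any of the 8 genes, and on this measure 20.1% of all genes tested had every library labelled DKO above every *Nf1fl/fl;DhhCre* library. Each exact two-sided permutation p was 0.1, the smallest possible here, before and after Benjamini-Hochberg adjustment over the 8 genes, so this design could not reach 0.05. *Cldn19* was the steadiest against the SC genes, at -0.91, -1.07 and -1.02 in *Nf1fl/fl;DhhCre* and 0.54, 0.54 and 0.53 in the other group. *Pmp2* was the least separated, with 1.16 in *Nf1fl/fl;DhhCre* replicate 1 and 1.20 in replicate 1 labelled DKO.

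The choice of reference genes moved these differences. *S100b*, one of the 7, itself rose (log2 fold change 1.52, SE 0.13, adjusted p = 0.00598, limma-voom), from 121 ± 8.5 to 347 ± 44.2 CPM (SD, n = 3). S100B is found in SCs of all kinds, and its level is known to be high in myelinating ones. With *S100b* left out of the reference, an alternative added after the data were seen, the differences ran from 1.18 (*Pmp2*) to 1.87 (*Gjb1*). Of the 7, *Lgi4* (log2 fold change -0.70, adjusted p = 0.0256, limma-voom) and *Foxd3* (-0.60, adjusted p = 0.0985, limma-voom) were lower, without overlap of the groups. Their fall lowered the reference and so raised the differences. A reference that drops only them was not run, but the references that follow leave both out. Against *Sox10* alone the differences ran from 0.80 to 1.49. Against *Sox10*, *Erbb3* and *S100b* only, they ran from 0.37 to 1.07, and *Pmp2*, at the low end, then had overlapping groups (exact permutation p = 0.3).

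**Figure D4:**
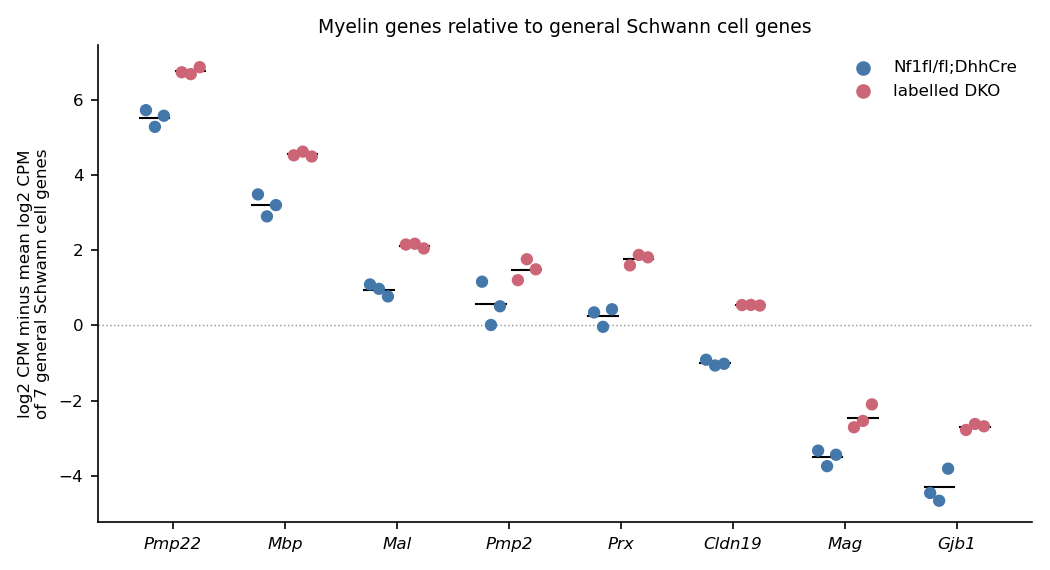
Log2 CPM of each of the 8 genes minus the mean log2 CPM of 7 general SC genes (vertical axis), with a point for each library and a line for each group mean. Libraries labelled DKO lie above *Nf1fl/fl;DhhCre* libraries in all 8 genes, by 0.92 (*Pmp2*) to 1.62 (*Gjb1*) in the means.

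Of 12 other genes of the myelin sheath, 2 were DEGs, both higher (8.03% of all genes tested were), and the median log2 fold change of the 12 was 0.31. Without *Nf1fl/fl;DhhCre* replicate 1 only 1 of the 12 was a DEG. *Ncmap*, which encodes a protein of non-compact myelin, was at 18.0, 36.0 and 10.8 CPM against 74.4, 67.8 and 78.4 CPM (log2 fold change 1.93, SE 0.37, adjusted p = 0.0167, limma-voom). *Cdh1*, the E-cadherin of the junctions that SC membrane makes with itself, was at 66.7, 57.3 and 65.9 CPM against 184, 199 and 257 CPM (log2 fold change 1.75, SE 0.16, adjusted p = 0.00598, limma-voom). *Pllp*, a tetraspan proteolipid gene, was just outside the threshold (log2 fold change 1.15, adjusted p = 0.0512, limma-voom). *Jam3*, another junctional gene, passed the adjusted p (0.0246, limma-voom) with a log2 fold change of 0.64, under 2-fold. *Cnp* and *Gjc3* were chosen after their values were seen, since they are abundant myelin genes. *Cnp* had a log2 fold change of 0.035 (SE 0.18) and *Gjc3* of -0.036 (SE 0.25), and the groups overlapped in both.

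Among 9 further genes whose mutation causes demyelinating Charcot-Marie-Tooth neuropathy, 1 was a DEG, a share near the 8.03% of all genes tested that were DEGs in the higher direction, and the median log2 fold change was 0.16. *Gdap1*, a gene of the outer mitochondrial membrane that neurons express strongly, rose from 19.0, 45.6 and 18.0 CPM to 104, 146 and 211 CPM (log2 fold change 2.55, SE 0.40, adjusted p = 0.0116, limma-voom), and it was no DEG without *Nf1fl/fl;DhhCre* replicate 1. *Ndrg1*, which is abundant in myelinating SCs, rose by 0.71 on the log2 scale (SE 0.14, adjusted p = 0.0174, limma-voom), under 2-fold. *Litaf*, an endosomal gene, was at a log2 fold change of -0.70 (adjusted p = 0.0785, limma-voom), and *Fgd4*, a gene of actin regulation, was at -0.38 (adjusted p = 0.164, limma-voom).

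The genes whose level followed the 8 most closely were found by the Pearson correlation, over the 6 libraries, with the mean standardised log2 CPM of the 8. This is a description, since the points fall into 2 groups and 876 of 10215 candidates had an r above 0.9. *Secisbp2l* (r = 0.997), *Elovl4* (0.997), *Lgi1* (0.995) and *Mob3b* (0.995) were among the 5 highest. *Secisbp2l* was at 440, 365 and 400 CPM in *Nf1fl/fl;DhhCre* and rose to 981, 955 and 1073 CPM in the others (log2 fold change 1.32, adjusted p = 0.00598, limma-voom). *Elovl4*, an elongase of very long chain fatty acids, was at 7.14, 5.48 and 5.20 CPM and at 21.3, 19.4 and 27.6 CPM.

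Markers of other cells moved between the same groups. All 12 sensory neuron genes examined were DEGs in the higher direction, and their summed CPM ran from 1228 to 2457 in *Nf1fl/fl;DhhCre* and from 6098 to 13832 in the libraries labelled DKO. Of 13 macrophage genes 11 were DEGs in the lower direction (769 to 1905 against 132 to 314 CPM), as were 4 of 7 fibroblast genes (9199 to 9859 against 3413 to 5637 CPM). The group with the tissue label DRG thus had the lower neuron sums and the higher macrophage and fibroblast sums. The group with the label neurofibroma tumor had the higher neuron sums. The 7 general SC genes summed to 963 to 991 against 972 to 1247 CPM, with the rise of *S100b* in the second sum, and their median log2 fold change was -0.12. *Lgi4*, a gene of SC signalling to axons, fell from 191 ± 7.6 to 119 ± 23.2 CPM (SD, n = 3; log2 fold change -0.70, adjusted p = 0.0256, limma-voom), under 2-fold, and *Foxd3* was at -0.60 (adjusted p = 0.0985, limma-voom). The 6 genes of non-myelinating SCs had a median log2 fold change of -0.49 with 2 DEGs higher and 1 lower. Of 3 satellite glia genes 1 fell and 1 rose. *Kcnj10*, a potassium channel gene, fell from 402 ± 36.8 to 173 ± 50.5 CPM and *Fabp7* rose from 14.6 ± 2.8 to 54.3 ± 18.3 CPM (SD, n = 3; both DEGs), and the median log2 fold change of the 3 was 0.73. The single marker genes named here were chosen after their values were seen. The part of the tissue's make-up in the rise of the 8 genes was not tested. *Nf1fl/fl;DhhCre* replicate 2 had the highest neuron sum of its group and the highest value of its group in 2 of the 8 genes (*Mal* and *Cldn19*). With lower neuron sums, *Nf1fl/fl;DhhCre* replicate 1 had the highest value of that group in 4 of the 8 and replicate 3 in 2. Replicate 3 labelled DKO had the highest neuron sum of all and the highest value of its group in 5 of the 8, *Mag* among them, while replicate 1, with the lowest neuron sum of its group, had the highest in *Mbp*, *Mal* and *Cldn19*. The 8 genes of a library share its scaling, so these counts only describe 3 libraries in each group.

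*Mbp*, *Mag* and *Mal* are also genes of oligodendrocytes, the myelinating cells of the central nervous system, so markers of these cells were examined. *Mog*, *Opalin*, *Olig1*, *Olig2* and *Nkx6-2* had at most 8 counts in any library. *Mobp* had at most 16, with every library labelled DKO (0.32 to 1.32 CPM) above every *Nf1fl/fl;DhhCre* library (at most 0.24 CPM). *Cldn11* and *Hapln2* had at most 39 and 37 counts, and *Ermn* was at 7.60 ± 1.19 and 7.67 ± 1.41 CPM (SD, n = 3), near the level of *Mag* in CPM in the first group. None of these 3 passed the test. The list of 10 summed to 53.6 to 66.8 CPM in *Nf1fl/fl;DhhCre* and 108 to 165 CPM in the libraries labelled DKO, and *Tspan2*, which SCs also express, made up most of it (50.4 ± 5.9 and 123 ± 30.1 CPM, SD, n = 3). No gene of the list was at 0 in all 6 libraries. With both libraries that held muscle RNA left out, *Mbp*, *Pmp22*, *Prx*, *Mal*, *Gjb1* and *Cldn19* remained DEGs (log2 fold changes 1.32 to 1.67).

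**Figure D5:**
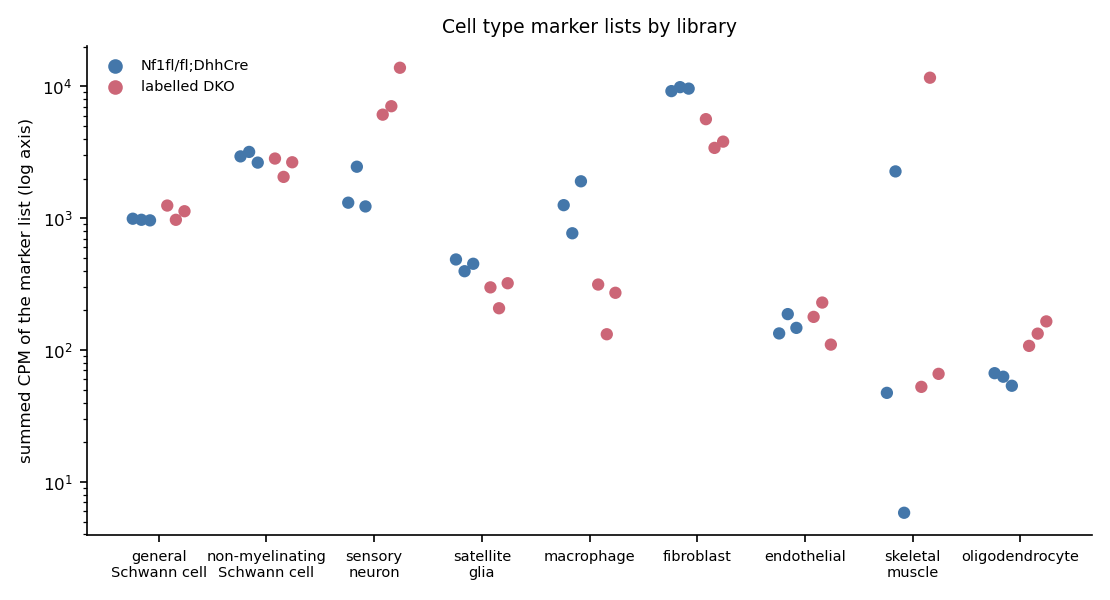
Summed CPM (log axis) of lists of marker genes for 9 cell types, with a point for each library in the order of replicates 1 to 3. Sensory neuron sums are higher and macrophage and fibroblast sums lower in every library labelled DKO, general SC sums lie between 963 and 1247 CPM in all 6, and muscle sums are high in 1 library of each group.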

How the data were processed

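RNA-seq of DRG/tumors was analysed in 6 libraries, 3 in each group. RNA was amplified (NuGEN Ovation), prepared with Nextera XT and sequenced as paired ends. The authors aligned the reads to mm10 with TopHat and deposited the number of reads assigned to each gene by featureCounts, as raw counts without normalization. The annotation, the strand setting and how multi-mapping reads were handled are not given in the sources used here. Reads from an amplified library are not independent molecules, so counting errors cover counting only.

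Groups were taken from the labels. Replicates were numbered by sample order, which pairs no animals. Sample titles and data names can carry different animal numbers within a genotype, and 1 library labelled DKO came from another sequencing run. It is replicate 3 or, by the other number, replicate 2, so each was left out in turn. Nothing in the labels says whether the libraries of a group came from separate litters, and p-values measure the spread between these libraries only.

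Low genes were removed by filterByExpr (at least 10 counts, 15 in total). After TMM scaling, limma-voom was fitted on genotype alone (R 4.3.3, edgeR 4.0.16, limma 3.58.1), with Benjamini-Hochberg adjustment over the 15652 genes tested. All 8 genes passed this filter. Log2 ratios used a prior count of 0.5 and exact permutation. Positions and exon lengths came from GENCODE M21 and upstream sequences from RefSeq (GRCm38.p6). The steps were tested on simulated data. Alternatives used the edgeR quasi-likelihood test, DESeq2 1.42.0, its size factors, library size only, both other filters, sample weights and leaving out each library.

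Related genes were named by the largest changes (at most 4 for each list) if their average log2 CPM was 3 or more, as were the 5 genes above this minimum most correlated with the 8. Of the correlated genes and of the other myelin sheath genes, 1 each is not reported here, though counts and medians over a list include it. The 8 genes, the lists and the tests were chosen with earlier results of these data known.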

Additional observations from a re-analysis of the deposited data

How the results depend on the processing

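In every setting run, each of the 8 genes was higher in the libraries labelled DKO, and 6 to 8 of them were DEGs. *Mbp*, *Pmp22*, *Prx*, *Mal* and *Cldn19* were DEGs in all 6 fits that left out 1 library and under all 7 other planned settings. *Mag* was under 2-fold with scaling by library size only (0.97) and with sample quality weights (0.92), and it was no DEG without both libraries that held muscle RNA (1.17, added after the data were seen). Over the fits that left out 1 library *Mag* ranged from 0.82 to 1.20 and was a DEG in 2 of 6, *Pmp2* ranged from 0.75 to 1.19, and *Gjb1* ranged from 1.52 to 1.83. *Pmp2* became a DEG without *Nf1fl/fl;DhhCre* replicate 1 (1.19) or without replicate 1 labelled DKO (1.02). In the other 4 of these fits its adjusted p was above 0.05 (up to 0.1003, limma-voom). The same held with sample quality weights (0.0863, limma-voom) and with the edgeR quasi-likelihood test (0.0508). *Gjb1* lost its call without *Nf1fl/fl;DhhCre* replicate 1 (1.52, adjusted p = 0.0541, limma-voom). Of all genes tested, 181 to 1304 were DEGs in the higher and 181 to 1028 in the lower direction in these fits. The counts fell by over 1.5 times without *Nf1fl/fl;DhhCre* replicate 1 (181 and 181), without *Nf1fl/fl;DhhCre* replicate 3 (535 and 498) and without replicate 2 labelled DKO (692 and 326), and in the lower direction also without replicate 3 labelled DKO (473). Over the fits that left out 1 library, counts of DEGs ranged from 1 to 2 among the other myelin sheath genes (3 by DESeq2) and from 0 to 1 among the neuropathy genes, the lower value of each without *Nf1fl/fl;DhhCre* replicate 1. The ratio of *Mal* to *Pmp22* differed by -0.17 to 0.083 over the fits that left out 1 library and turned without *Nf1fl/fl;DhhCre* replicate 2 (0.083) or replicate 3 labelled DKO (0.037). With the longest transcript as the length, *Mbp* was at 158, *Pmp22* at 2089 and *Mag* at 2.96 CPM per kb in *Nf1fl/fl;DhhCre*. The causes of these changes were not tested. No paired analysis was possible because the labels give no replicate numbers that the groups share. Depth limits *Gjb1* and *Mag*, with 51 to 300 counts a library, more than the other 6 genes.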
